A study of Mus musculus with 4 samples.

Results

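The repeats described here are the simple, low-complexity, satellite, tRNA, rRNA and snRNA sequences that were scored for overlap with peaks of INO80, the ATPase that gives a nucleosome remodelling complex its name, in mouse spermatocytes. They are the rows of the authors' repeat table whose name carries 1 of these 6 class labels, 425 of 1643 rows in all. Of these, 411 were single members and 14 were rows that sum a whole class or family. The single members comprised 315 simple repeat units, 10 kinds of low-complexity sequence, 9 satellites, 62 members labelled tRNA, 3 rRNAs and 12 snRNAs. Of the 62, 2 were short interspersed elements (SINEs) derived from tRNA. The other rows of the table were mostly transposable elements, with 166 rows for LINEs and 691 for LTR elements.

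INO80 chromatin immunoprecipitation and sequencing (ChIP-seq) was done on 2 INO80 samples, with 2 input samples beside them. All 4 came from F1 mice of DBA/2J and C57BL/6J parents. All carried the same synchronising treatment, which was daily fertilysin for 7 days from 2 dpp (days after birth), retinoic acid at 9 dpp and collection 8 days later. The cells were spermatocytes at early zygotene, when homologous chromosomes begin to pair, enriched on 28% Percoll. Peak data hold no expression, so the cell type was not checked against its markers. How many animals each replicate pooled, and whether the pools were separate, is left unsaid in the labels, so differences between replicates can be partly technical. An adaptase library kit is listed for the INO80 samples and not for the inputs.

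A simple repeat is a unit of a few bases copied head to tail, also called a microsatellite, and low-complexity sequence is a stretch rich in a few bases without a strict unit. Most such DNA in a mammalian genome is made of A and T or of CA and GA units, while units that hold a CpG, a C followed by a G, are rare because methylated CpG mutates readily. CpG-holding repeats survive mainly in CpG islands, the unmethylated GC-rich stretches at many gene starts. Satellites often form long arrays near centromeres and chromosome ends, and tRNA, rRNA and snRNA genes make structural RNAs.

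What such runs look like under INO80 peaks is shown by 8 promoters. Runs of at least 12 bases and 3 whole copies of a unit of 1 to 6 bases were searched on both strands of RefSeq promoter windows (GRCm38.p6). A window held 250 bases before and 50 after a gene start. The 9 promoters taken by rule were those with the longest runs among windows overlapping a reproducible peak, 6 for units with a GC fraction above 0.5 and 3 for the rest. The ninth, Fgf18, a growth factor gene, had its run after the gene start and is named only. The first 3 sequences below repeat a CpG-holding unit, the next 2 a GC-rich unit without CpG, and the last 3 a unit with a GC fraction of 0.5 or less. Capitals mark the run, and each sequence reads 5′ to 3′ on the strand of its gene.
Smad5: gCGCCCGCCCGCCCGCCCGCCCGCCCGCtc
Iqgap2: cGCGGGCGGGCGGGCGGGCGGGCGGGCGaa
Cacna1c: gcCGGGCGGGCGGGCGGGCGGGCGGGCGcg
Gna13: gCCCTCCCTCCCTCCCTCCCTCCCTCCCac
Tshz3: ggTCCTCCTCCTCCTCCTCCTCCTCCTCtg
Fam78a: AGAGAGAGAGAGAGAGAGAGAGAGAGAGAG
Rhbdd2: TTGTTTGTTTGTTTGTTTGTTTGTTTGTTT
Lemd1: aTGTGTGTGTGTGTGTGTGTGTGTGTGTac

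Positions given here are those of the 30 bases shown, with any bases beside the run. Smad5, which encodes a transducer of BMP signals, has its run within chr13:56703491-56703520 on the plus strand, in a window with 31 CpG. Iqgap2, a scaffold protein gene, has its run within chr13:95891948-95891977 on the minus strand, with 41 CpG in the window. Cacna1c, which encodes a voltage-gated calcium channel subunit, has its run within chr6:119108665-119108694 on the minus strand, with 57 CpG. These 3 runs are the same repeat of C and G read on either strand and from different starting letters.

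Gna13, a G protein subunit gene, has its run within chr11:109362766-109362795 on the plus strand and 40 CpG in the window. Tshz3, a zinc finger homeobox gene, has its run within chr7:36697953-36697982 on the plus strand and 33 CpG. Fam78a has its run at chr2:32084787-32084816 on the minus strand and 21 CpG. Rhbdd2, of the rhomboid domain family, has its run at chr5:135632419-135632448 on the plus strand and 13 CpG. Lemd1, a LEM domain gene, has its run within chr1:132191294-132191323 on the plus strand and 15 CpG.

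All 8 runs lay before the gene start. In 7 of the 8 the reproducible peak covered the run, and in Rhbdd2 the peak began at position 135632643, after the run. The peak caller's fold enrichment, as deposited by the authors, at Smad5 was 3.72 in INO80 replicate 1 and 3.93 in replicate 2. At Tshz3 it was 3.82 in replicate 1 and 5.74 in replicate 2. At Fam78a, whose run holds no CpG, it was 4.30 in replicate 1 and 7.02 in replicate 2, above both Smad5 values. Gna13 overlapped a peak in replicate 1 and none in replicate 2, and Cacna1c and Lemd1 a peak in replicate 2 and none in replicate 1.

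The authors' repeat table was made from 1 set of 2847 reproducible peaks taken from both replicates, of 5953790 bp in total and 1780 bp each at the median. That is 0.298% of the genome size of 2000000000 bp stated in its header. A repeat spread evenly over a genome of that size would have 0.298% of its bases in peaks. The table gives this expectation in bp, the overlap in bp and a p for each row, and the ratio of overlap to expected bp is used below. Both replicates are pooled, so these ratios have no replicate error. Shares are given with exact binomial (Clopper-Pearson) intervals at the 95% level, which hold counting error alone. The INO80 libraries held 98100000 and 82600000 uniquely mapped reads and the inputs 70400000 and 39600000, rounded as deposited. Among mapped reads, 67.7% to 75.2% were unique in the INO80 libraries and 56.3% to 67.2% in the inputs.

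Simple repeats as a class lay under INO80 peaks less than expected, and low-complexity sequence more. The 1015643 simple repeats covered 58263628 bp and met 1254 of the 2847 peaks (44.0%, interval 42.2 to 45.9), with 99768 bp of overlap against 173444 bp expected, a ratio of 0.575. The 386539 low-complexity features covered 20019739 bp and met 1367 peaks (48.0%, interval 46.2 to 49.9), with 110723 bp against 59596 bp expected, a ratio of 1.86. In the authors' deposited table the p was 9.63e-06 for simple repeats and 4.34e-05 for low-complexity sequence. LINEs had a ratio of 0.0149, LTR elements 0.0301 and SINEs 0.184, so simple repeats, although below expectation, were nearer to it than any of these 3 classes.

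At the authors' p under 0.05, 9 rows of the 425 overlapped peaks more than expected (2.12%), against 0.548% of all 1643 rows, and no row outside the 425 did. They were GC_rich, C-rich and G-rich sequence, the unit CCG and its opposite-strand name CGG, the unit CCCCG and its opposite-strand name CGGGG, and the low-complexity class row, which is listed under 2 names. In the other direction, 9 of the 425 rows overlapped less than expected (2.12%), against 7.55% of the table. These were the units CA, TG and TA, AT_rich sequence, the satellite IMPB_01, and the class rows of simple repeats and satellites, each listed under 2 names.

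GC_rich sequence led the low-complexity class. Its 8072 features covered 286928 bp, 35.5 bp each on average, and met 1042 peaks (36.6%, interval 34.8 to 38.4). The overlap was 61281 bp against 854 bp expected, a ratio of 71.8 (p = 1.49e-44 in the authors' deposited table). Thus 21.4% of all GC_rich bp in the genome lay under the reproducible peaks. Each overlapping peak held 58.8 bp of it on average. By the same measure, the CpG islands of the authors' annotation had a higher ratio, 90.6, with 27.0% of their bp under the peaks.

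The other low-complexity members spread widely around expectation. C-rich sequence met 173 peaks at a ratio of 3.41 and G-rich sequence 165 peaks at 3.12, with p of 0.00802 and 0.00911 in the authors' deposited table. AT_rich sequence, with 228756 features, met 154 peaks and had 4524 bp against 21568 bp expected, a ratio of 0.210 (p = 0.0021 in the authors' deposited table). T-rich sequence had a ratio of 0.528 and A-rich sequence 0.411. GA-rich sequence had 0.590, CT-rich 0.489, polypurine 0.553 in 4 peaks and polypyrimidine 0.213 in 2 peaks. The 3 GC-rich kinds therefore stood above 1 and all 7 others below it.

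Summed over simple and low-complexity members, GC-rich units had 143259 bp of overlap against 26697 bp expected, a ratio of 5.37 over 147 units. AT-rich units had 26918 bp against 106886 bp, a ratio of 0.252 over 139 units. Units with equal shares of both, such as CA and GA, had 40624 bp against 99653 bp, a ratio of 0.408 over 39 units. GC-rich units made up 11.5% of the feature bp and 68.0% of the overlap. The ratio of GC-rich units was 3.12 for simple repeats alone and 8.92 for low-complexity sequence alone, and 3.17 without GC_rich, which gave 42.8% of the overlap. Many GC-rich units are rare: 75 of the 147 had no overlap, and over the 128 with at least 1 bp expected the median ratio was 0.243. With at least 10 bp expected, 40 of 90 GC-rich units were above expectation and the median ratio was 0.551.

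Among simple repeats, the units that hold a CpG were above expectation in sum and the others below it. The 75 CpG-holding units had 38521 bp under peaks against 1117 bp expected, a ratio of 34.5, with 9.93% of their bp in peaks. The 240 CpG-free units had 61494 bp against 172418 bp, a ratio of 0.357. With at least 10 bp expected, all 19 CpG-holding units were above expectation, from 2.68 to 83.2 with a median of 29.6. Of the 191 CpG-free units with at least 10 bp expected, 23 were above it, and 7 more with the genome size summed from the authors' annotation table, 1.35 times the stated one. A further 43 CpG-holding units had no overlap, but these had at most 5 bp expected each and 44 bp in all.

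**Figure D1:**
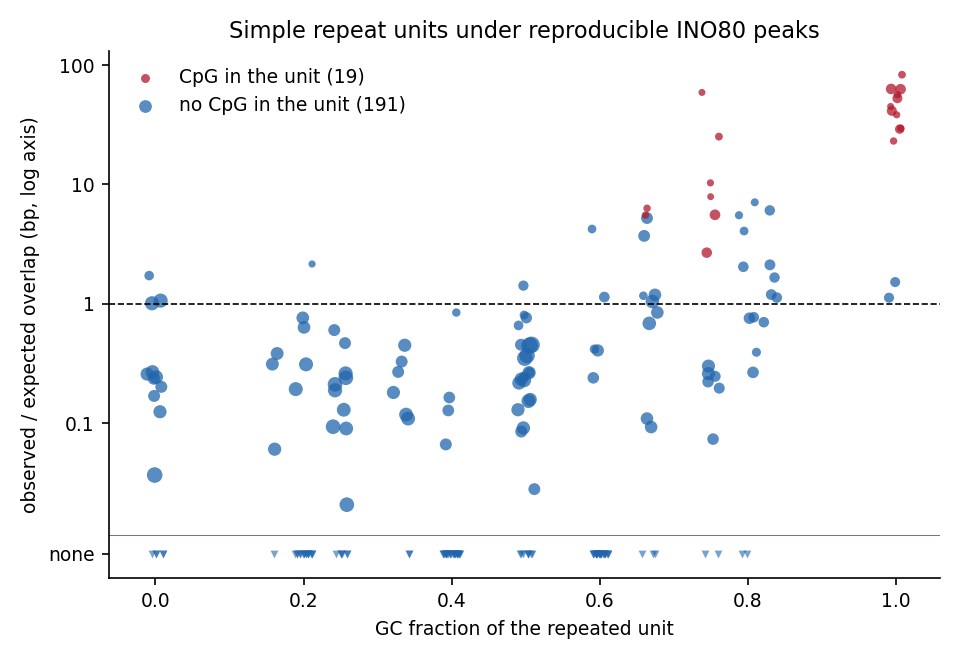
Ratio of observed to expected overlap with reproducible INO80 peaks (log axis) against the GC fraction of the repeated unit, for simple repeat units with at least 10 bp expected. Each point is a unit, larger with more expected bp and shifted slightly sideways at random, triangles mark units with no overlap, and the dashed line marks a ratio of 1. All 19 CpG-holding units lie above the line, and 23 of 191 CpG-free units do.

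Among CpG-holding units, CCG and CGG met the most peaks. The unit CCG met 149 peaks with 9607 bp of overlap against 152 bp expected, a ratio of 63.2, and 18.7% of its bp lay in peaks (p = 7.94e-07 in the authors' deposited table). The unit CGG met 139 peaks with 9121 bp against 145 bp, a ratio of 62.9 (p = 6.63e-07 in the authors' deposited table). CCCCG met 64 peaks at a ratio of 52.8 and CGGGG 57 peaks at 41.4, with p of 0.000906 and 0.0437 in the authors' deposited table. CG itself met 39 peaks at 29.1. CGTG, which covers more bp than CCG, was nearer to expectation, with 16 peaks at a ratio of 5.57, and its opposite-strand name CACG had the lowest of the 19 ratios, 2.68 in 8 peaks. The repeat shown at Smad5, Iqgap2 and Cacna1c is listed as CCCG, with 16 peaks and a ratio of 45.1, and CGGG, with 15 peaks and 38.4.

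A high ratio did not always carry a small p. Of the 411 single members, 24 had at least 10 bp expected and a ratio of at least 5, and 19 of these 24 had a p of 0.05 or more in the authors' deposited table. CCGCG, for example, met 21 peaks with 1664 bp against 20 bp expected, a ratio of 83.2, at p = 1 in the authors' deposited table. Of the 24, 19 were CpG-holding or GC_rich. The others were CTG at 5.23, CCCTG at 5.52, CAGGG at 7.08, CCCCAG at 6.06 and the satellite SUBTEL_sa at 8.43 in 2 peaks.

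CpG and GC content overlap as properties, so the units were also set side by side at equal GC fraction. At a GC fraction of 0.75, the 8 CpG-holding units had a ratio of 7.40 in 55 peak overlaps and the 8 CpG-free units 0.241 in 23. At 0.8 the ratios were 25.4 in 20 overlaps and 1.14 in 34. At 0.667 they were 5.11, from 3 overlaps, and 1.14 from 173. Between 0.5 and 1, both ends left out, the 52 CpG-holding units had 8.89 and the 76 CpG-free units 0.813, which is 1.10 with the genome size of the annotation table. No overlap was found for 34 of these 52 units and 41 of these 76, so the median unit had none in either. Expected bp are rounded down for each unit, which raises the summed ratios of rare units. The 18 CpG-holding units at 0.8 had 43 bp expected in all. The share of bp in peaks is free of this rounding. It was 6.08% with CpG and 0.338% without at 0.8, and 2.51% and 0.242% between 0.5 and 1.

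Units of C and G only differed in the same direction. The 14 units that hold both letters, and so a CpG, had a ratio of 52.9, with 15.5% of their bp in peaks. Runs of C or of G alone had 1.32 in 9 overlaps. These are the only CpG-free units of C and G, so CpG and unit length cannot be told apart here. All 4 units of 1 base, A and T among them, had a ratio of 1.045 together. GC fraction was also set against the log2 ratio. Among CpG-free units with at least 10 bp expected, rho was 0.246 (Spearman) and r 0.266 (Pearson), over n = 191 units. Of these 191, 95 had no overlap and were taken at 1 bp, so their values vary with expected bp alone. Over all 315 units, 185 of them without overlap, rho was 0.497 and r 0.541. These are correlations across units that share 1 peak set, 1 expectation and base composition, and are descriptions.

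CpG-free units above expectation were few. CTG met 41 peaks at a ratio of 5.23 and its opposite-strand name CAG 32 peaks at 3.71. Both are trinucleotides known from repeat expansion disorders in humans. Runs of A met 90 peaks at a ratio of 1.06 and runs of T 89 peaks at 1.01. With TAAAAA, at 1.72 in 4 peaks, they were the 3 of 16 AT-only units above expectation. TA met 8 peaks with 378 bp against 10318 bp expected, a ratio of 0.0366 (p = 0.00713 in the authors' deposited table).

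The dinucleotides that cover the most bp were below expectation, as were many longer CpG-free units. CA covered 8651404 bp and met 220 peaks at a ratio of 0.452, and TG covered 8750701 bp and met 205 peaks at 0.446, with p of 0.0164 and 0.015 in the authors' deposited table. TC had 0.349 in 56 peaks and GA 0.368 in 52. TAGA had 0.0932 in 5 peaks and TCTA 0.0207 in 1. CAAAA had 0.193 in 16 peaks and TTTTG 0.310 in 23. GAA and TTC, at 0.118 and 0.109, met 3 peaks each, and CAGAGA and TCTCTG, at 0.0908 and 0.217, met 2 and 3. The telomere repeat, listed as TTAGGG and CCCTAA, had no overlap against 211 and 184 bp expected.

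How far such ratios vary between sets of sites can be read from pairs of units named on opposite strands. These are the same double-stranded sequence at separate sets of sites. Both names share 1 peak set, so this is a description and not a measure of sampling error. There were 153 such pairs among the simple repeats, and 9 units had no partner. In the 17 pairs with at least 10 overlapping peaks under both names, the higher ratio was a median of 1.28 times the lower, and at most 2.35 times. These pairs were taken by their overlap, so units with few peaks are not covered. The widest of the 17 was CGAG, at 59.1 in 12 peaks, with CTCG, at 25.2 in 13. Of the 62 pairs with at least 50 bp expected under both names, 40 had overlap under both, with a median factor of 1.39 and a largest of 4.51. A further 11 had overlap under 1 name alone, and 11 under neither. With the units at no overlap taken at 1 bp, the largest factor in the 62 pairs was 228.6.

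**Figure D2:**
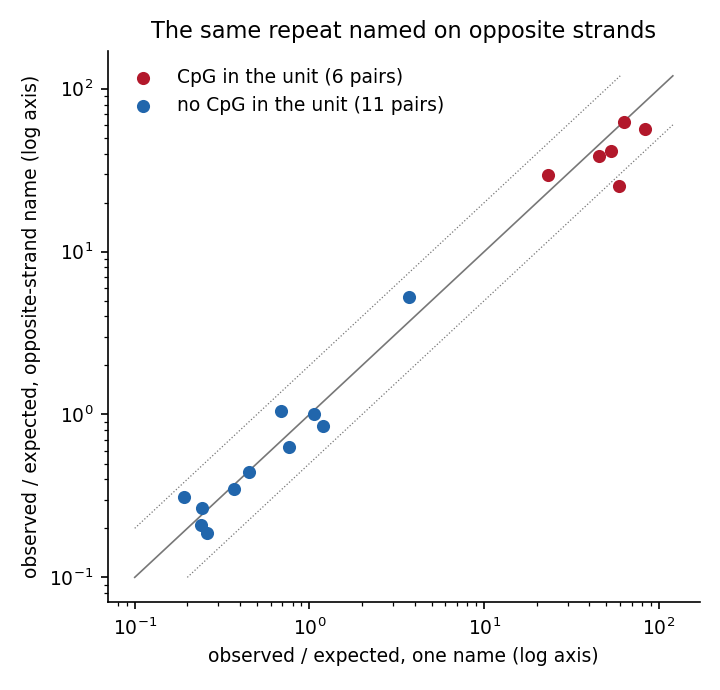
Ratio of observed to expected overlap for the 17 simple repeats with at least 10 overlapping peaks under each of their opposite-strand names (both axes log). Each point is a pair, the solid line marks equal ratios and the dotted lines a factor of 2; the median factor between names was 1.28 and the largest 2.35.

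Satellites and the tRNA, rRNA and snRNA classes had little overlap. The satellite class, 5040247 bp, met 21 peaks with 2467 bp against 15004 bp expected, a ratio of 0.164 (p = 0.00617 in the authors' deposited table). IMPB_01 met 14 of these peaks at 0.152, ZP3AR 4 at 0.458 and MMSAT4 1 at 0.223. GSAT_MM, the mouse major satellite, and MurSAT1 had no overlap, against 656 and 1993 bp expected. Features averaged 2534 bp in GSAT_MM, but 117 bp in MurSAT1, 114 bp in IMPB_01 and 137 bp in the class. Reads from long satellite arrays rarely map to 1 place, and the sources used here do not give how they were handled. Whether mapping bears on these ratios was not tested.

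The RNA classes hold repeat-annotated sequence, with 3007 snRNA and 1564 rRNA features, against 5 and 71 in the authors' annotation overlaps. They are therefore not counts of genes. Sequence labelled tRNA, SINEs left out, met 4 peaks with 303 bp against 860 bp expected, a ratio of 0.352. tRNA-Arg-AGA held 172 bp of this in 2 peaks, at 4 bp expected, and tRNA-Asn-AAC and tRNA-Cys-TGY were met by 1 peak each. The SINEs derived from tRNA were met by 1 peak, through LFSINE_Vert at 0.149. snRNA sequence met 1 peak, at a U2 member, with 187 bp against 726 bp expected for the class. rRNA sequence met none of the 2847 peaks, which allows a share of up to 0.105% of peaks at a floor of 3 counts, against an exact interval that reaches 0.1295%, and 500 bp were expected. None of the tRNA, rRNA or snRNA rows had a p under 0.05 in the authors' deposited table.

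Because the repeat table pools the replicates, the runs in RefSeq promoter windows were used to look at each replicate. Of 32817 windows from 26994 genes on 20 chromosomes, 7.76% overlapped a reproducible peak, 11.4% a replicate 1 peak and 16.6% a replicate 2 peak. Windows with a CpG-holding GC-rich run numbered 1288, and 242 of them overlapped a reproducible peak (18.8%, interval 16.7 to 21.03). Windows with no run of at least 12 bases numbered 27541, of which 2038 overlapped one (7.40%, interval 7.09 to 7.71). In replicate 1 the shares were 29.7% with such a run and 10.95% without a run, and in replicate 2 they were 42.6% and 16.0%. The intervals did not overlap in either replicate.

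Other runs followed the order seen in the repeat table. The 1645 windows with a GC-rich run without CpG had a share of 11.2% (interval 9.70 to 12.8), the 860 with a balanced unit 5.0% and the 1929 with an AT-rich unit 4.93%. The same order held in replicate 1, at 15.3%, 6.74% and 5.55%, and in replicate 2, at 22.0%, 10.2% and 9.02%. The intervals of balanced and AT-rich runs overlapped. Median fold enrichment at the peaks differed little by run, from 3.58 to 3.81 in replicate 1 and from 4.88 to 5.14 in replicate 2.

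**Figure D3:**
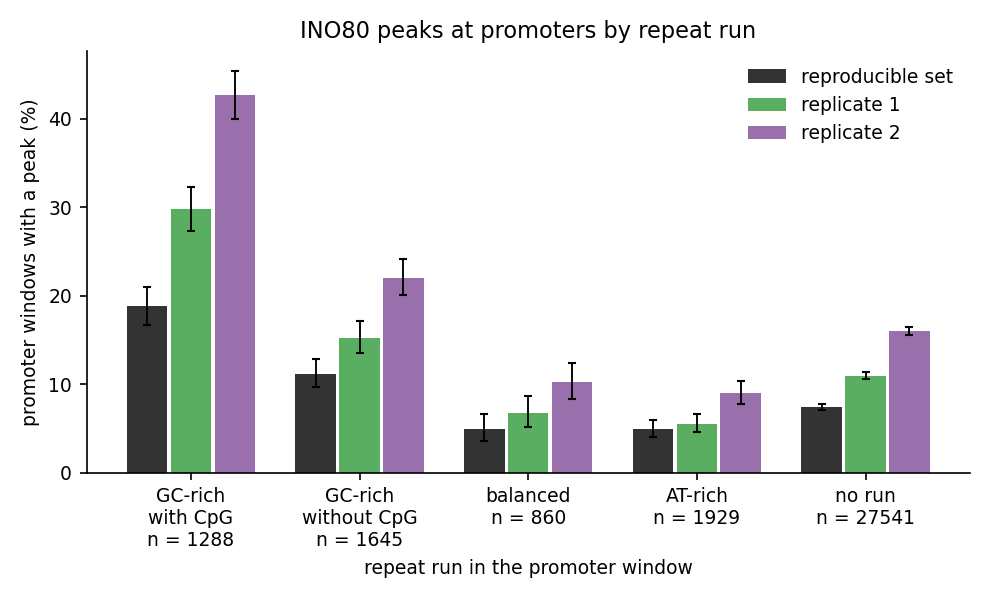
Share of promoter windows that overlap an INO80 peak (%), by the kind of repeat run in the window. Runs have at least 12 bases, and shares are given for the reproducible set and each replicate. Bars are shares and error bars exact 95% binomial intervals, which cover counting error only; windows with a CpG-holding GC-rich run reach 18.8%, 29.7% and 42.6%, against 7.40%, 10.95% and 16.0% without a run.

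By unit, read on either strand, CG runs had the highest share among units in at least 50 windows, with 29 of 92 windows overlapping a reproducible peak (31.5%, interval 22.2 to 42.0). CCCG runs had 22.3% of 247 windows, CCG runs 18.5% of 589 and CCCCG runs 13.0% of 184. AGG runs, which hold no CpG, had 18.03% of 305 windows. Poly-A had 6.03% of 1061 windows and AC 3.74% of 348. None of the 87 windows with AAC, the 56 with AAG or the 55 with AT runs overlapped a reproducible peak. Their intervals reached 4.15%, 6.4% and 6.49%. Replicate 1 peaks overlapped 1, 3 and 1 of these windows, and replicate 2 peaks 2, 6 and 0.

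Windows with a CpG-holding run were also rich in CpG as a whole, with a median of 36 CpG against 7 in windows without a run. Of the 2847 peaks, 2794 met a CpG island in the authors' annotation overlaps, and the repeat ratios above were not tested outside islands. At fewer than 10 CpG, 1 of 31 windows with a run overlapped a reproducible peak, and 145 of 15873 without. At 10 to 19 CpG, 9.71% of 103 windows with a run overlapped a reproducible peak, and 10.1% of 4778 without. At 20 to 29 CpG the shares were 17.9% with a run and 16.5% without, and at 30 to 39 CpG 23.8% and 24.3%. In replicate 2 at 20 to 29 CpG the share was 29.3% with a run (interval 24.0 to 35.1) and 36.1% without (interval 34.6 to 37.6), the widest gap of these 3 ranges there. The differences in shares at equal CpG count were not tested.

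Among windows with 40 or more CpG, the share with a run was lower than the share without. With a run, 83 of 465 windows overlapped a reproducible peak (17.8%, interval 14.5 to 21.6), and without a run 248 of 766 did (32.4%, interval 29.1 to 35.8). In replicate 1 the shares were 29.2% with a run and 49.7% without, and in replicate 2 they were 53.5% (interval 48.9 to 58.2) and 65.7% (interval 62.2 to 69.0). The median CpG count was 46 with a run and 44 without. Windows without a run of at least 12 bases can still hold a shorter CpG-holding one. In 368 windows with 40 or more CpG the longest such run had 9 to 11 bases, and 29.9% of these overlapped a reproducible peak. Counting only CpG outside the runs, at 12 or more per 100 bases, the shares were 18.7% with a run and 30.0% without. In replicate 2 that difference was 54.8% (interval 50.3 to 59.2) against 59.7% (interval 57.0 to 62.4), with overlapping intervals. These ranges of CpG count were chosen after seeing the data.

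**Figure D4:**
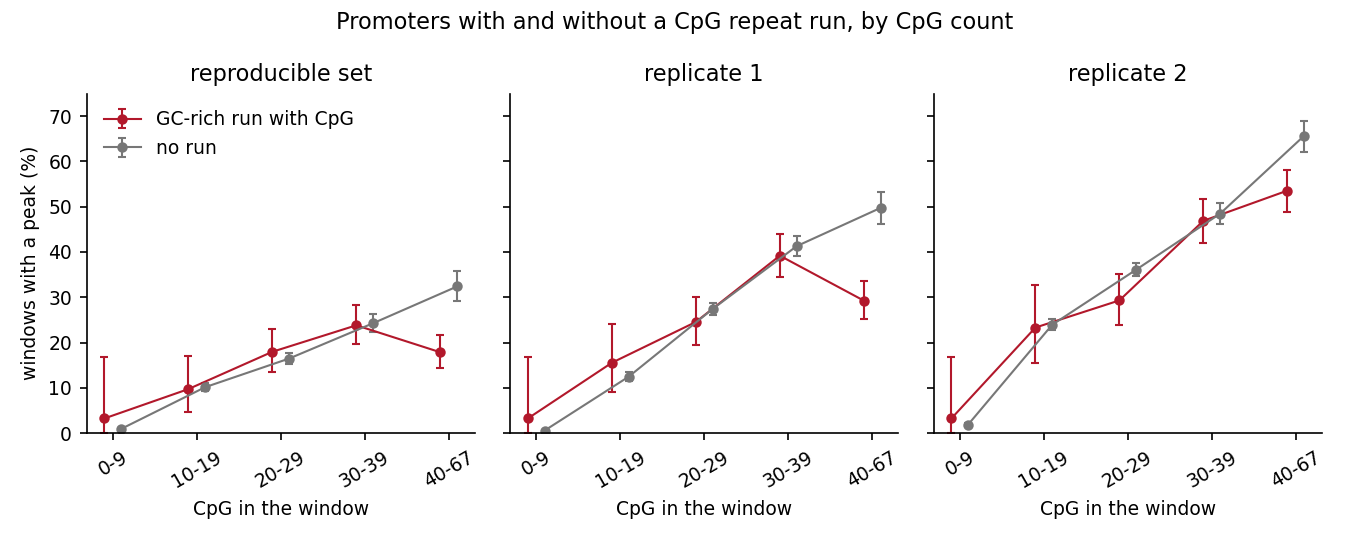
Share of promoter windows that overlap an INO80 peak (%) against the number of CpG in the window, in the reproducible set and each replicate. Red marks windows with a CpG-holding GC-rich run and grey those without any run, counting only runs of at least 12 bases. Points are shares and bars exact 95% binomial intervals; the groups lie together up to 39 CpG, except that replicate 2 is lower with a run at 20 to 29 CpG (29.3% against 36.1%), and part at 40 to 67 CpG.

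Shares were lower for runs of 15 bases or more than for shorter ones. Windows whose longest CpG-holding GC-rich run had 9 to 11 bases overlapped a reproducible peak in 25.0% of 1521 windows, those with 12 to 14 bases in 22.9% of 580, with 15 to 17 bases in 14.96% of 381, and with 18 to 78 bases in 15.9% of 327. In replicate 1 the 4 shares were 38.5%, 34.5%, 24.7% and 27.2%, and in replicate 2 they were 50.2%, 48.4%, 39.4% and 36.1%. The median CpG count did not fall along this series, at 31, 35, 35 and 37. Run position differed little: the 284 runs in windows with a reproducible peak lay at a median of -48.8 bp from the gene start and the 1229 in other windows at -41.0 bp, with negative values before the start. The share centred after the start was 22.9% (interval 18.1 to 28.2) with a peak and 27.3% (interval 24.9 to 29.9) without.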

How the data were processed

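The members, lists and ranges used here were chosen with earlier results of these data known. The submitters' processing notes list MACS2 2.2.7.1, deepTools 3.4.3, BWA, fastp, SAMtools 1.11 and Picard 2.21.2, give no settings, and name GRCm38 and mm10 as builds. The authors deposited rounded read numbers per library, a broad peak list per INO80 replicate, and 1 peak set from both replicates, kept at a limit on the irreproducible discovery rate per the file headers. In the deposited peak lists the fold (a ratio), the score and the −log10 p and q are the peak caller's values, and only the fold is printed. The deposited repeat table gives counts of features and of overlapping peaks, the coverage of features and of their overlap with peaks in bp, the expected bp, the natural log of the ratio, a p-value and its log as a signed score. The expected bp equal feature bp times peak bp over the stated genome size, rounded down. The authors' p uses an unstated test and is unadjusted. Repeat coordinates were not used here, so repeats were not tied to single peaks or replicates.

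Ratios were computed as overlap over expected bp, and class ratios as ratios of sums. Units are rich in GC or AT above or below a GC fraction of 0.5, and CpG was read around the unit in a circle. Correlations took members with no overlap at 1 bp. Promoter windows came from RefSeq (GRCm38.p6), without chromosome 18, and a window counted as occupied when it overlapped a peak by at least 1 bp. Windows of 1 gene can overlap each other, as do 1830 pairs on opposite strands, so windows are not independent. Named members were all low-complexity members and class rows, and the leading satellite, tRNA, rRNA and snRNA members. The simple repeats with most peaks or bp were also named, with their opposite-strand names. The run search and the ratios were tested on simulated data. Python 3.11.15, pandas 2.3.3 and SciPy 1.17.1 were used.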

Additional observations from a re-analysis of the deposited data

How the results depend on the processing

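The GC-rich ratio of 5.37 was 6.04 with limits of 2/3 and 1/3, 3.17 without GC_rich, 3.12 for simple and 8.92 for low-complexity sequence, and 7.24 with the genome size summed from the annotation table (1.35 times the stated one); its median over the 128 units with at least 1 bp expected turned to 0.243. In the same terms AT-rich units had 0.229, 0.303 and 0.340, with a median of 0; balanced units had 0.532 (low-complexity) and 0.550 (genome size), with a median of 0.213. In overlapping peaks per 1000 bp expected the 3 classes had 86.0, 6.70 and 7.09. The median turned to 0 for CpG-holding units between GC fractions of 0.5 and 1 and was 0 for CpG-free ones. Many of these units have almost no expected bp. The rank correlation of 0.497 was 0.682 over units with overlap. Taking replicates singly, promoter shares ran from 29.7% to 42.6% for CpG-holding runs, 15.3% to 22.0% for GC-rich runs without CpG, 6.74% to 10.2% for balanced, 5.55% to 9.02% for AT-rich and 10.95% to 16.0% for no run. With runs of at least 9 or 15 bases the CpG-holding share was 22.1% or 15.4%. The share without a run was 6.54% with runs of at least 9 bases, 7.01% by peak centres within 1 kb and 7.75% by genes. The cause was not tested. The other genome size multiplies every ratio alike and lifts those above 0.741 past 1: the CpG-free ratio of 0.813 turned to 1.10, 7 members with at least 10 bp expected passed 1, and the CpG-holding ratio of 8.89 was 12.0. Genome size, repeat kind, genes, CpG ranges and run lengths were alternatives chosen after seeing the data, and chromosome lengths, planned as a genome size, were not run. No paired analysis was possible because the inputs have no peak list here and the repeat table pools both INO80 replicates. The reproducible set is smaller than either replicate list, so levels of shares depend on the list. Its shares were not always the lowest. At fewer than 10 CpG without a run, 0.91% of 15873 windows overlapped a reproducible peak, 0.56% a replicate 1 peak and 1.89% a replicate 2 peak.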
